A study of Mus musculus with 7 samples.

Results

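MHC class II molecules and the proteins that load them with peptide were followed in mature white adipocytes with and without adipose FFA2. The 10 genes were chosen by symbol, from 57010 genes in the deposited count table. They encode the classical chains H2-Aa, H2-Ab1 and H2-Eb1, the invariant chain Cd74, the loading factors H2-DMa, H2-DMb1 and H2-DMb2, the loading inhibitor chains H2-Oa and H2-Ob, and the coactivator Ciita. Of these, 9 passed the filter on low counts and were tested, and H2-Oa did not pass.

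Class II molecules display peptides from endocytosed proteins to CD4+ T cells. Their alpha and beta chains assemble with the invariant chain, which is cut down by endosomal proteases until H2-DM exchanges its last fragment for a peptide, and H2-O holds H2-DM back. B cells, dendritic cells and many macrophages make class II molecules under the coactivator CIITA. Adipocytes have been described as a further, inducible source in adipose tissue.

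Controls were 3 libraries of FFA2 fl/fl mice, in which loxP sites flank the FFA2 gene, and they were compared with 4 libraries of Adipoq-F2-KO mice, which carry the same floxed alleles and a Cre recombinase driven by the adiponectin promoter. All were male, 20 weeks old, littermates co-housed from birth, and fed normal chow without other treatment. Their strain was not given, nor was it stated whether any control carried Cre. Adipocytes were isolated from perigonadal fat by collagenase digestion, and poly-A RNA was sequenced in stranded, paired-end libraries. The Cre acts in cells that express adiponectin, so other cells carried into a preparation keep their FFA2.

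Total counts lay between 30478997 and 39992605 per library, so that 0 counts allowed up to 0.151 to 0.204 CPM (TMM-normalised counts per 1e+06 counts; 3 fragments, counting error only). Ffar2, the gene of FFA2, was at 34.5 ± 2.77 CPM in controls (SD, n = 3) and at 1.69 ± 0.634 CPM in Adipoq-F2-KO (SD, n = 4; edgeR adjusted p = 8e-06), in the direction of the labels. Adipoq was between 2419 and 3762 CPM, and the sum of 15 adipocyte markers was 57276 to 63190 CPM in controls and lower, at 43767 to 57102 CPM, in Adipoq-F2-KO, without overlap. Other cells were also represented. The sum of 20 macrophage markers was 490 to 554 CPM in controls and 643 to 742 CPM in Adipoq-F2-KO, and the sum of 12 endothelial markers was 1329 to 1762 and 1805 to 2783 CPM. The sum of fibroblast progenitor markers was 988 to 1312 and 1419 to 1622 CPM, and none of these 3 sums overlapped between the groups. Mitochondrial genes took 4.41 to 5.77% of control counts and 6.61 to 10.3% of Adipoq-F2-KO counts, also without overlap. B cell markers other than Ighm, the heavy chain of IgM, stood apart in FFA2 fl/fl 2 and Adipoq-F2-KO 3, 1 library of each genotype. In bulk RNA, more cells of a type and more RNA per cell cannot be told apart.

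Class II promoters share an upstream module in which an X box bound by RFX lies a fixed distance before a Y box, an inverted CCAAT element bound by NF-Y, and CIITA is recruited to the proteins on it. The module is shown because it is what the members share at the sequence level and because their RNAs were compared for moving together. RefSeq windows on GRCm38.p6 were available for 7 of the 10 genes, and the 250 bases upstream of the start were searched on both strands. The letters TGATTGG (Y box) preceded at 22 to 28 bases by AAC, taken here as part of the X box, were found in 6 of these 7 genes, H2-DMa being the exception, and in 0.633% of all 32851 windows. TGATTGG alone was in the same 6 genes and in 7.23% of all windows. Of 18 class I presentation genes with a window, 7 held TGATTGG and 0 held the spaced pair. The letters and the spacing were chosen after these promoters had been read, and a match is a description and not a binding site. The stretches run 5′ to 3′ on the gene's strand, with AAC and TGATTGG in capitals.
H2-Aa, chr17:34287857-34287912, minus strand: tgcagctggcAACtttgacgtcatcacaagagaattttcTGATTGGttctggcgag
H2-Eb1, chr17:34305768-34305822, plus strand: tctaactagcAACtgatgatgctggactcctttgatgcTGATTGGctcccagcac
H2-DMb1, chr17:34153089-34153144, plus strand: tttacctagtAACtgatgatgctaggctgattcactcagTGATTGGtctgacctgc
H2-DMb2, chr17:34145118-34145173, plus strand: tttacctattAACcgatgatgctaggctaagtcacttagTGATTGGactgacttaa
H2-Oa, chr17:34092295-34092350, plus strand: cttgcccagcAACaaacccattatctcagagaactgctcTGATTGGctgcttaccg
H2-Ob, chr17:34238810-34238862, plus strand: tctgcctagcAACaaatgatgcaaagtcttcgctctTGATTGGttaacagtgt

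The gap between both blocks was 26 bases in H2-Aa, H2-DMb1, H2-DMb2 and H2-Oa, 25 in H2-Eb1 and 23 in H2-Ob. The Y box letters began between 45 bases (H2-Oa) and 92 bases (H2-DMb2) before the annotated start. The neighbours H2-DMb1 and H2-DMb2 are close copies also here, and how reads were shared between such copies was not stated, so their separate counts are uncertain. H2-Ab1, Cd74 and Ciita had no entry in the promoter table.

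In the deposited count table, whose coordinates differ from GRCm38, 8 of the 10 genes lie on chromosome 17 within 224 kb. In order, they are H2-Oa (34311314-34314208), H2-DMa (34338515-34358075), H2-DMb2 (34362281-34370529), H2-DMb1 (34372046-34379204), H2-Ob (34457877-34473388), H2-Ab1 (34476663-34488393), H2-Aa (34501718-34506797) and H2-Eb1 (34524841-34535648). Cd74 lies on chromosome 18 (60936920-60945724) and Ciita on chromosome 16 (10297923-10346282).

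Levels between genes were compared as CPM per kb of summed exon length. Cd74 was the most abundant, at 130 ± 29.3 CPM per kb in controls (SD, n = 3) and 188 ± 32.5 in Adipoq-F2-KO (SD, n = 4). The classical chains followed, with H2-Eb1 at 45.1 ± 9.45 and 65.2 ± 11.7, H2-Ab1 at 34.8 ± 5.17 and 45.9 ± 5.83, and H2-Aa at 21.3 ± 3.09 and 31.5 ± 6.09 CPM per kb. Over the 7 libraries, Cd74 did not overlap with any other member, whereas neighbouring classical chains overlapped. The loading factors lay lower, with H2-DMb1 at 4.21 ± 0.429 and 5.27 ± 0.815, H2-DMa at 1.93 ± 0.597 and 2.82 ± 0.235, and H2-DMb2 at 1.20 ± 1.37 and 1.07 ± 0.643 CPM per kb. Ciita, H2-Ob and H2-Oa had the lowest levels, at 0.329 ± 0.221, 0.250 ± 0.360 and 0.120 ± 0.176 CPM per kb in controls and 0.354 ± 0.0707, 0.223 ± 0.131 and 0.0590 ± 0.118 in Adipoq-F2-KO. H2-DMb1 lay above H2-DMa in all libraries, and H2-DMa, H2-DMb2 and the genes below them overlapped with their neighbours.

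The comparison of Adipoq-F2-KO with floxed controls asks whether the class II genes differ when adipocytes lack FFA2. The classical chains, Cd74 and H2-DMa had mean levels 1.32 to 1.48 times those of the controls, but the adjusted p was above 0.05 for every tested member. By edgeR's quasi-likelihood test with Benjamini-Hochberg adjustment over 17039 genes, 0 of the 9 tested members were called in either direction, against 1.02% of all tested genes (0.798% higher and 0.217% lower). At an unadjusted p under 0.05, 5 members were higher (H2-Aa, H2-Ab1, H2-Eb1, H2-DMa and Cd74) and 0 lower, against 10.5% of all genes higher. DESeq2 called 4 members higher (H2-Aa, H2-Ab1, H2-Eb1 and Cd74), against 4.67% of its tested genes, and limma voom called 0, against 0.974%. EdgeR on all genes with at least 1 count called the same 4 members as DESeq2, against 3.76% of the genes. The log2 fold change was above 0 in 7 of 9 members, with a median of 0.40, and in 50.4% of all tested genes, with a median of 0.0037.

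**Figure D1:**
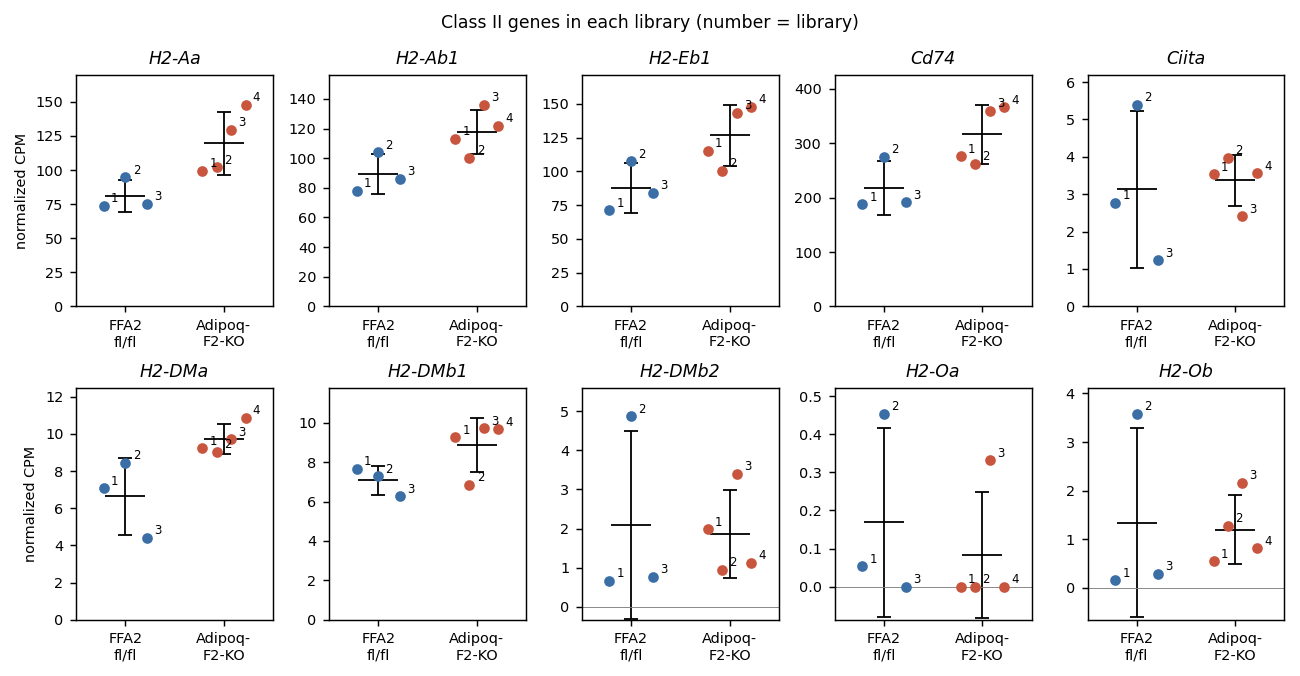
Normalised CPM of the 10 class II genes in each library, 1 panel per gene, with points for the 3 FFA2 fl/fl and 4 Adipoq-F2-KO libraries and lines for mean and SD. H2-Aa and H2-DMa do not overlap between genotypes, while H2-DMb2, H2-Ob and Ciita are highest in FFA2 fl/fl 2.

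H2-Aa, the alpha chain of the I-A molecule, was at 73.5, 94.6 and 75.0 CPM in FFA2 fl/fl 1 to 3 and at 99.6, 102, 129 and 148 CPM in Adipoq-F2-KO 1 to 4. All Adipoq-F2-KO libraries lay above all controls. The means were 81.0 ± 11.7 (SD, n = 3) and 120 ± 23.1 CPM (SD, n = 4), and the log2 fold change was 0.56 (SE 0.15, edgeR adjusted p = 0.0980). Among the 9 members that could be tested, 2 had no overlap and the higher values in Adipoq-F2-KO, H2-Aa and H2-DMa, against 8.86% of all tested genes.

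H2-Ab1, the beta chain that pairs with H2-Aa, was at 77.9, 104 and 86.2 CPM in controls and at 113, 100, 136 and 122 CPM in Adipoq-F2-KO. FFA2 fl/fl 2 lay above Adipoq-F2-KO 2, so the groups overlapped in that pair alone. The means were 89.3 ± 13.3 and 118 ± 14.97 CPM, with a log2 fold change of 0.40 (SE 0.13, edgeR adjusted p = 0.142).

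H2-Eb1, the beta chain of the I-E molecule, was at 71.1, 107 and 84.3 CPM in controls and at 115, 100, 143 and 148 CPM in Adipoq-F2-KO. Again FFA2 fl/fl 2 exceeded Adipoq-F2-KO 2. The log2 fold change was 0.53 (SE 0.16, edgeR adjusted p = 0.130). The alpha chain H2-Ea, which mice of the H-2b haplotype do not transcribe, had 3 counts in FFA2 fl/fl 1 and 0 in all other libraries, and the haplotype of these mice was not given.

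Cd74, the invariant chain that occupies the groove until a peptide is loaded, was at 188, 275 and 191 CPM in controls and at 276, 263, 360 and 366 CPM in Adipoq-F2-KO. FFA2 fl/fl 2 overlapped with Adipoq-F2-KO 2 and lay just below Adipoq-F2-KO 1. The means were 218 ± 49.2 and 316 ± 54.6 CPM, with a log2 fold change of 0.54 (SE 0.16, edgeR adjusted p = 0.129).

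The proportions between the abundant chains were also compared. The ratio of Cd74 to the summed classical chains, in CPM, was 0.780 to 0.898 in controls and 0.841 to 0.881 in Adipoq-F2-KO. H2-Eb1 to H2-Ab1 ranged from 0.913 to 1.21 and H2-Aa to H2-Ab1 from 0.871 to 1.21 over the 7 libraries, both with the highest ratio in Adipoq-F2-KO 4. On the log2 CPM scale, Cd74 followed the mean of the 3 classical chains with a Pearson r of 0.99 over the 7 libraries, which share genotype groups and normalisation.

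H2-DMa, the alpha chain of the peptide exchange factor H2-DM, was at 7.08, 8.44 and 4.39 CPM in controls and at 9.23, 9.05, 9.71 and 10.9 CPM in Adipoq-F2-KO. The groups did not overlap, and the lowest value was that of FFA2 fl/fl 3. The means were 6.64 ± 2.06 and 9.71 ± 0.810 CPM, with a log2 fold change of 0.55 (SE 0.21, edgeR adjusted p = 0.206).

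H2-DMb1, a beta chain of H2-DM, was at 7.66, 7.28 and 6.27 CPM in controls and at 9.26, 6.83, 9.71 and 9.67 CPM in Adipoq-F2-KO. Adipoq-F2-KO 2 fell among the controls, and the other Adipoq-F2-KO libraries lay above them. The log2 fold change was 0.33 (SE 0.17, edgeR adjusted p = 0.349).

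A two-sided exact permutation test over the libraries, with 35 splits and a smallest possible p of 0.0286, gave unadjusted values for the single members. These were 0.0286 for H2-DMa, 0.0857 for H2-Aa and H2-Ab1, and 0.114 for H2-Eb1, Cd74 and H2-DMb1. For the other 4 of the 10 members the values lay between 0.543 (H2-Oa) and 0.943 (H2-DMb2).

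**Figure D2:**
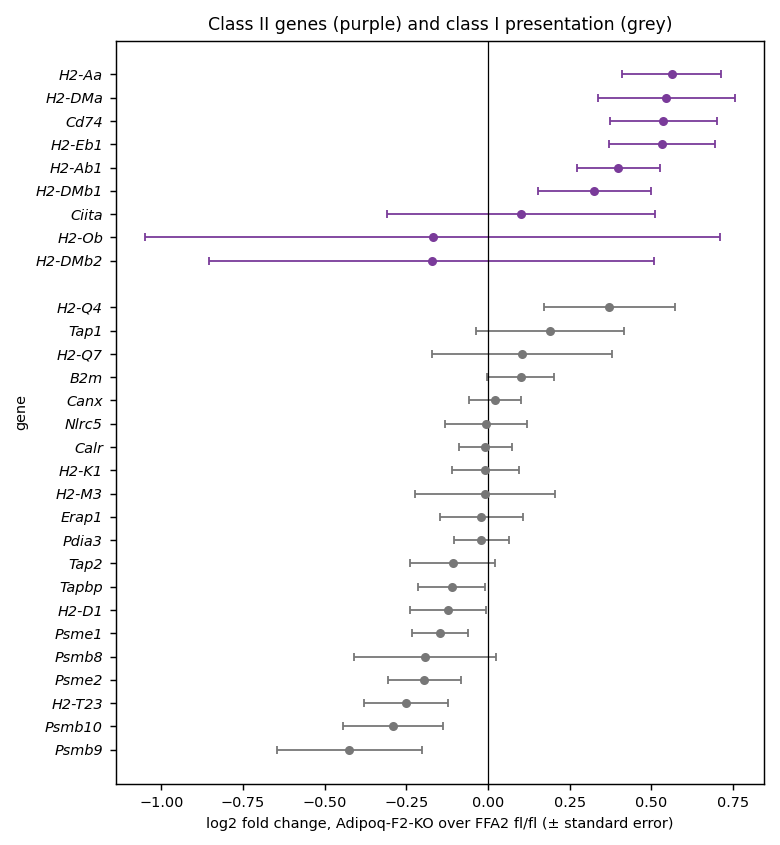
Log2 fold change between Adipoq-F2-KO and FFA2 fl/fl by edgeR, with SE as bars, for the 9 tested class II genes (purple) and the 20 class I presentation genes (grey). H2-Aa, H2-Ab1, H2-Eb1, Cd74, H2-DMa and H2-DMb1 lie between 0.33 and 0.56, and H2-DMb2, H2-Ob and Ciita lie between -0.17 and 0.10 with SEs of 0.41 to 0.88. The class I genes lie between -0.42 and 0.37.

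H2-DMb2, H2-Ob and H2-Oa followed another pattern, with their highest values in FFA2 fl/fl 2 and Adipoq-F2-KO 3. These are the libraries with the highest sums of B cell markers when Ighm is left out.

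H2-DMb2, the alternative beta chain of H2-DM, was at 0.668, 4.86 and 0.762 CPM in controls and at 1.98, 0.942, 3.40 and 1.12 CPM in Adipoq-F2-KO. FFA2 fl/fl 2 was the highest of all and the other controls were the lowest of all, so that the controls enclosed the Adipoq-F2-KO libraries. The log2 fold change was -0.17 (SE 0.68, edgeR adjusted p = 0.926), and it was 1.38 without FFA2 fl/fl 2. As a share of H2-DMb1, H2-DMb2 reached 66.8% in the control library 2 and 35.04% in Adipoq-F2-KO 3, against 8.71 to 21.4% elsewhere.

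H2-Ob, the beta chain of H2-O, was at 0.160, 3.58 and 0.293 CPM in controls and at 0.552, 1.28, 2.16 and 0.814 CPM in Adipoq-F2-KO. As with H2-DMb2, all Adipoq-F2-KO libraries lay between FFA2 fl/fl 2 and the other controls. The log2 fold change was -0.17 (SE 0.88, edgeR adjusted p = 0.946), and it was 2.39 without FFA2 fl/fl 2.

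H2-Oa, the alpha chain of H2-O, had 2, 18 and 0 counts in controls and 0, 0, 12 and 0 counts in Adipoq-F2-KO. FFA2 fl/fl 2 and Adipoq-F2-KO 3 were above the limit of 6 counts (3 fragments), and the other 5 libraries were at or under it. H2-Eb2, a further beta chain outside the 10 genes, had 29 counts in FFA2 fl/fl 2, 31 in Adipoq-F2-KO 3, 2 in Adipoq-F2-KO 2 and 0 elsewhere. No fold change was computed for either gene.

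The B cell markers Ms4a1 and Pax5 had the same libraries at their top. Ms4a1, which encodes CD20, was at 2.52 CPM in FFA2 fl/fl 2, 2.05 CPM in Adipoq-F2-KO 3 and 0 to 0.668 CPM elsewhere. Pax5, the B cell identity factor, was at 6.20 CPM in the first of these libraries, 2.16 CPM in the other and 0 to 1.09 CPM elsewhere. FFA2 fl/fl 2 was highest in both markers, and Adipoq-F2-KO 3 followed. Ighm stood at 323 to 693 CPM in all libraries and was set aside after its values were seen. Without it the summed B cell list was 6.03, 53.0 and 5.80 CPM in controls and 12.3, 14.5, 35.4 and 14.8 CPM in Adipoq-F2-KO. With Ighm the sum was 560 to 699 CPM in controls and 338 to 697 CPM in Adipoq-F2-KO, highest in FFA2 fl/fl 1 and Adipoq-F2-KO 1. Of 14 tested genes on the full list, 5 had a log2 fold change above 0 and 0 were called by edgeR or DESeq2.

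Over the 7 libraries, on the log2 scale, H2-Ob had a Pearson r of 0.97 with the B cell sum without Ighm and 0.36 with the macrophage sum, and H2-DMb2 had 0.93 and 0.20. H2-Aa had the reverse order, 0.55 with the B cell sum and 0.90 with the macrophage sum. Cd74 had 0.70 and 0.86. The r with the endothelial and fibroblast progenitor sums, which were also higher in Adipoq-F2-KO without overlap, was not computed. With Ighm included, the r with the B cell sum was -0.32 for H2-Ob and 0.21 for H2-DMb2, so the likeness rests on leaving Ighm out. These values describe 7 points that share library depth and genotype, and the part of B cell transcripts in the members' levels was not tested. Without FFA2 fl/fl 2 and Adipoq-F2-KO 3, an alternative chosen after seeing the data, the log2 fold change was 0.65 for H2-Aa, 0.67 for Cd74, 0.76 for H2-DMa, 0.92 for H2-DMb2 and 1.94 for H2-Ob, and edgeR called 0 members (adjusted p of 0.120 to 0.558 over the 9).

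**Figure D3:**
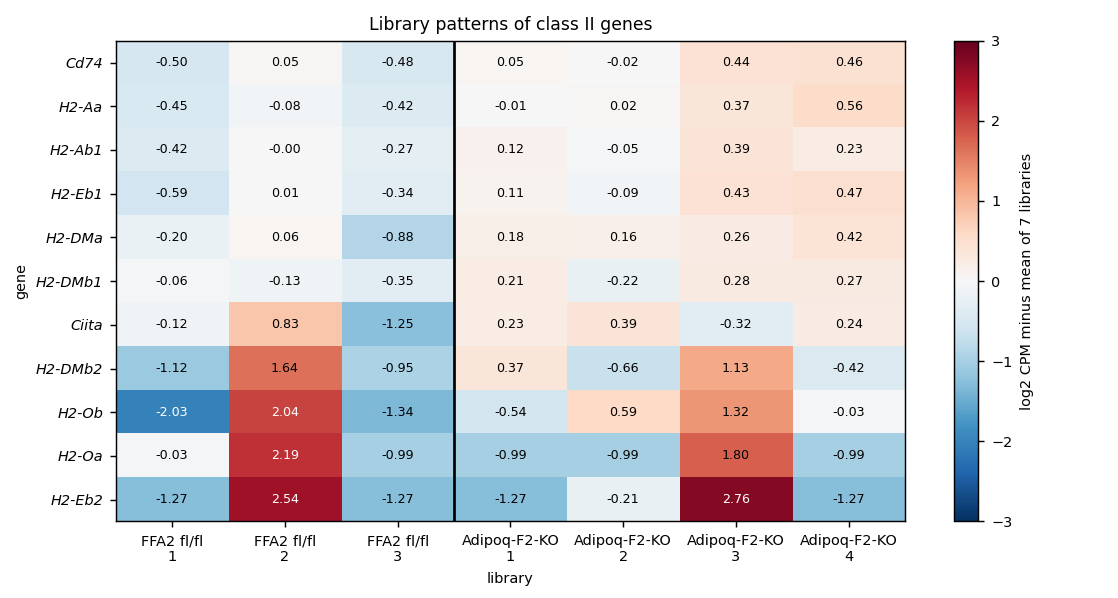
Log2 CPM of each class II gene, and of H2-Eb2, in each library minus its mean over the 7 libraries, as colours and printed values. The upper genes are lowest in FFA2 fl/fl 1 or FFA2 fl/fl 3 and within 0.56 of 0 in Adipoq-F2-KO, while H2-DMb2, H2-Ob, H2-Oa and H2-Eb2 peak in FFA2 fl/fl 2 and Adipoq-F2-KO 3.

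Ciita, the coactivator on which transcription of the classical chains depends in most cells, was at 2.78, 5.39 and 1.23 CPM in controls and at 3.54, 3.98, 2.41 and 3.56 CPM in Adipoq-F2-KO. The controls held both the highest and the lowest value. The means were 3.13 ± 2.10 and 3.37 ± 0.675 CPM, with a log2 fold change of 0.10 (SE 0.41, edgeR adjusted p = 0.929), and it was -0.27 without FFA2 fl/fl 3. Ciita as a share of Cd74 ranged from 0.643% in FFA2 fl/fl 3 to 1.96% in FFA2 fl/fl 2, and Adipoq-F2-KO 3, among the highest in Cd74, had 0.668%. Its r with the mean of the classical chains was 0.33, against 0.78 for H2-DMa and 0.77 for H2-DMb1.

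Of 14 other class II transcription genes, 10 were above 0 (median log2 fold change 0.17), edgeR called 0 and DESeq2 called Spi1 and Irf8 higher. Over all tested genes, 50.4% were above 0, and edgeR called 0.798% and DESeq2 4.67% higher. The RFX subunits had log2 fold changes of 0.15 for Rfx5 (edgeR adjusted p = 0.705), -0.22 for Rfxank (0.699) and -0.28 for Rfxap (0.376), the lowest of the list. Irf8, a factor of macrophages, dendritic cells and B cells, had the highest, 0.66 (edgeR adjusted p = 0.130). Irf1, Kat2b and Crebbp were the most abundant per kb, with 0.19, 0.04 and 0.24.

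Interferon gamma induces Ciita through JAK1 and JAK2 in many cell types. Ifng was at 0 CPM in 5 libraries, at 0.0586 CPM in FFA2 fl/fl 3 and at 0.407 CPM in Adipoq-F2-KO 4. Of 12 tested genes from the cytokine to Ciita, 8 were above 0 (median 0.17), edgeR called 0 and DESeq2 called Jak1 and Jak2 higher. The shares of all tested genes called higher were 0.798% by edgeR and 4.67% by DESeq2. Jak2 was at 52.7, 56.8 and 55.5 CPM in controls and at 75.4, 94.3, 90.1 and 172 CPM in Adipoq-F2-KO, without overlap (log2 fold change 0.97, edgeR adjusted p = 0.0696). Of the 12 genes, 2 were higher without overlap, against 8.86% of all tested genes. The receptor chain Ifngr1 was at -0.29 (adjusted p = 0.310) and the interferon-induced GTPase Gbp2 at 0.28 (0.614).

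Genes of peptide supply and chain processing held 2 of 15 called higher and 0 lower by edgeR, with 8 above 0 (median 0.17), and DESeq2 called 4 higher (Ctss, Ctsh, Lgmn and Cd83). The shares of all tested genes called higher were 0.798% by edgeR and 4.67% by DESeq2. Ctsh, a lysosomal aminopeptidase, rose from 13.3 ± 1.58 to 22.1 ± 3.31 CPM (log2 fold change 0.73, SE 0.14, adjusted p = 0.0451). Cd83, which protects class II from ubiquitination by MARCH ligases, rose from 13.1 ± 3.66 to 25.8 ± 5.08 CPM (0.97, SE 0.20, adjusted p = 0.0484). For both genes, the groups did not overlap, but edgeR called Ctsh in 1 and Cd83 in 2 of the 7 fits that each left out 1 library (adjusted p up to 0.221 and 0.241). Of the 15 genes, 6 were higher and 1 was lower without overlap. Over all 17039 tested genes, 1510 (8.86%) were higher and 1486 lower without overlap.

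Ctss, the protease that makes the last cuts in the invariant chain, was at 35.2, 35.7 and 21.2 CPM in controls and at 46.3, 50.7, 56.4 and 48.3 CPM in Adipoq-F2-KO. The groups did not overlap, and edgeR's test was missed (log2 fold change 0.71, edgeR adjusted p = 0.0654). Ifi30, the lysosomal thiol reductase, was at 0.48 (adjusted p = 0.117). Marchf8, a ligase of the MARCH family, had the lowest value of the list, -0.36, with 83.8 to 92.4 CPM in controls and 56.6 to 74.9 CPM in Adipoq-F2-KO (adjusted p = 0.123). The abundant Ctsb, Ctsd and the protease inhibitor Cst3 were at -0.01, -0.07 and -0.03.

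Among costimulatory and partner molecules, 1 of 9 tested genes was called higher by edgeR and 3 by DESeq2 (Cd40, Icosl and Cd44), and 6 were above 0 (median 0.88). Of all tested genes, edgeR called 0.798% and DESeq2 4.67% higher. Cd44, an adhesion receptor that also partners with CD74, rose from 15.5 ± 3.04 to 31.4 ± 5.92 CPM (log2 fold change 1.02, SE 0.17, edgeR adjusted p = 0.0332), and was called in 3 of the 7 fits without 1 library (adjusted p up to 0.196). Cd40 had the highest value at 1.91, from a low level of 0.541 ± 0.327 CPM in controls to 2.06 ± 1.06 CPM (adjusted p = 0.169), and Cd4 the lowest at -0.86 (adjusted p = 0.597). Mif, a ligand of CD74, was at -0.07, Cd274 at -0.06 and Lag3, a class II receptor on T cells, at 0.45. EdgeR called none of these 5.

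Class I presentation genes, which load cytosolic peptides for CD8+ T cells, were set beside the class II genes. Of 20 tested, 5 were above 0 and 15 below, 0 were called by edgeR or DESeq2, and the median log2 fold change was -0.02, against 0.40 for the class II genes. B2m, the shared light chain, was at 1479 ± 60.5 and 1585 ± 166 CPM (0.10, edgeR adjusted p = 0.652). H2-D1 and H2-K1 were at -0.12 and -0.01, and Nlrc5, the class I counterpart of CIITA, was at -0.00 (adjusted p = 0.991). The range ran from Psmb9, an immunoproteasome subunit, at -0.42 to H2-Q4 at 0.37. The difference between both lists was not tested.

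As with endothelial and fibroblast progenitor markers, most macrophage markers went in the direction of the abundant class II genes. Of 20 tested, 17 were above 0 with a median log2 fold change of 0.60, and 2 were called higher by edgeR, the lysosomal protein Cd68 (0.72, adjusted p = 0.0416) and the lysozyme Lyz2 (0.69, adjusted p = 0.0382). They were called in 1 and 3 of the 7 fits without 1 library (adjusted p up to 0.227 and 0.201). DESeq2 called 9 of the 20 higher, Adgre1 and Csf1r among them. Over all tested genes, edgeR called 0.798% and DESeq2 4.67% higher. Mertk (-0.42), Lyve1 (-0.38) and Cd163 (-0.12) were below 0, and neither tool called a marker lower. Mertk was at 72.4 to 106 CPM in controls and at 60.4 to 78.0 CPM in Adipoq-F2-KO, so the macrophage sum holds a large part that went the other way. The defining markers were Adgre1, at 10.1 to 12.9 CPM in controls and 15.9 to 25.98 CPM in Adipoq-F2-KO (edgeR adjusted p = 0.0792), and Csf1r, at 39.9 to 55.8 and 58.8 to 71.6 CPM. Relative to the macrophage sum, Cd74 was 38.3, 50.4 and 34.6% in controls and 41.3, 40.8, 53.1 and 49.3% in Adipoq-F2-KO. The summed classical chains were 44.3 to 56.1% and 47.1 to 60.3% of it. Both measures overlapped between the groups as CPM already, so their overlap as shares shows no effect of the division. The part of macrophage transcripts in the class II levels was not tested.

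Dendritic cell markers had 11 of 14 above 0 (median 0.28), with 0 called by edgeR and Fscn1 called higher by DESeq2, and their sum was 175 to 215 CPM in controls and 210 to 237 CPM in Adipoq-F2-KO. Flt3 was at 0.0608 to 0.678 CPM and Zbtb46, which endothelial cells also express, at 9.99 to 22.3 CPM. Xcr1 was at 0 in 6 libraries. The T cell markers Cd3e and Cd3d were at 0 to 0.806 CPM and were not tested. Of 15 T cell markers, 8 were tested, with 5 above 0 (median 0.16) and 0 called by edgeR or DESeq2. The 15 summed to 5.82 to 15.9 CPM in controls and 13.0 to 16.1 CPM in Adipoq-F2-KO. Endothelial markers had 12 of 12 above 0 (median 0.45), with 0 called by edgeR and 4 called higher by DESeq2 (Pecam1, Cdh5, Tek and Cldn5). Relative to the endothelial sum, Cd74 was 12.9 to 15.6% in controls and 13.2 to 19.7% in Adipoq-F2-KO. Fibroblast progenitor markers had 9 of 10 above 0 (median 0.34), with 0 called by edgeR and Cd34 called higher by DESeq2. Adipocyte markers had 14 of 15 below 0 (median -0.28), with 0 called by edgeR. DESeq2 called 3 of them lower (Plin4, Lipe and Slc2a4), against 220 of 14342 genes, and 6 were lower without overlap, against 1486 of 17039 genes. The share of all its tested genes that DESeq2 called higher was 4.67%. Neutrophil markers summed to 2.58 to 5.14 CPM and mesothelial markers to 10.7 to 57.3 CPM over all libraries, with 0 called by edgeR or DESeq2. The part of these shifts in the class II levels was not tested.

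**Figure D4:**
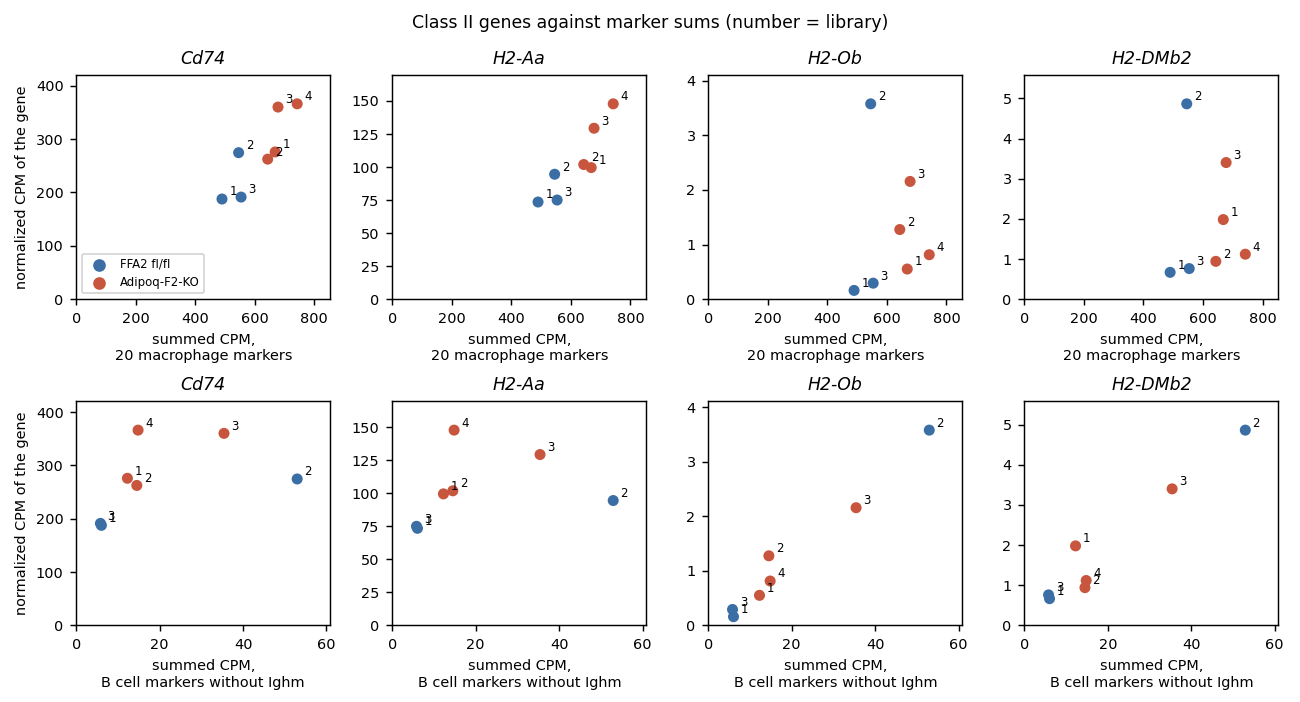
Normalised CPM of Cd74, H2-Aa, H2-Ob and H2-DMb2 (vertical axes) against the summed CPM of 20 macrophage markers (upper row) and of the B cell markers without Ighm (lower row), with a numbered point per library in blue for FFA2 fl/fl and red for Adipoq-F2-KO. H2-Aa is lower in the libraries with a macrophage sum of 490 to 554 CPM than in all others. Those libraries are the FFA2 fl/fl libraries, so genotype and macrophage sum cannot be told apart in this split. Cd74 is higher in FFA2 fl/fl 2, with a sum of 545 CPM, than in Adipoq-F2-KO 2, with a sum of 643 CPM. H2-Ob and H2-DMb2 are highest where the B cell sum is highest (53.0 CPM in FFA2 fl/fl 2 and 35.4 CPM in Adipoq-F2-KO 3).

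Among 13499 other tested genes whose mean reached 1 CPM, the 10 whose log2 CPM was most like the mean of H2-Aa, H2-Ab1 and H2-Eb1 over the 7 libraries were Hoxb6, Gm28661, Gm29216, Top2a, Dusp2, mt-Co1, Pim1, Stmn1, Bdkrb2 and 2410006H16Rik. Their Pearson r lay between 0.979 and 0.994, and edgeR called 0 of the 10. Cd74 reached 0.990 on the same scale. With 7 libraries and this many candidates, values of this size are a description of these libraries, and the mitochondrial share of the counts differed between the groups in the same direction.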

How the data were processed

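RNA of mature white adipocytes was sequenced in 3 control (FFA2 fl/fl) and 4 Adipoq-F2-KO libraries. The authors used Trimmomatic for trimming, STAR for alignment and featureCounts for counting, and deposited raw counts with coordinates and exon lengths. The submitters' processing notes name GRCm38 (mm10) and DESeq2, but 0 of the 10 members' deposited starts match GRCm38, so those coordinates are given as deposited and promoter sequences from RefSeq on GRCm38.p6. Versions and counting options, including strand and reads shared by copies, were not given in the sources used here. Of the low counts, 85.5 to 88.8% per library were even, so both mates appear to have been counted and 3 fragments make 6 counts. Of 57010 identifiers, 52029 matched a symbol.

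Genes were filtered with filterByExpr, normalised with TMM (factors 0.968 to 1.02) and tested with edgeR 4.0.16 (quasi-likelihood, two-sided, genotype alone) in R 4.3.3. P-values were adjusted by Benjamini-Hochberg over 17039 genes, with a threshold of 0.05. Levels are TMM-normalised CPM, and marker sums add these. Single members were also tested by exact permutation. Alternatives were RLE factors, a filter of at least 1 count, DESeq2 1.42.0, limma 3.58.1 (voom), a replicate block, each library left out, and the omission of both libraries with the most B cell transcripts other than Ighm. Libraries of 1 genotype were not duplicates of each other (37.8 to 147 chi-square units per degree of freedom). The labels do not say whether a sample is 1 mouse, so p-values measure the spread between samples. They describe littermates, but do not tie the numbers of the samples to litters or days.

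The members and lists were chosen with earlier results of these data known. The text names all members and, of the pathway lists, called genes, those with the highest and lowest fold change, the 3 highest per kb and a few fixed genes. Marker lists are given by their counts, sums and defining genes, and the macrophage markers below 0 were named after their values were seen. Genes called by DESeq2 alone were named after their values were seen. Some listed genes are not reported here.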

Additional observations from a re-analysis of the deposited data

Results flagged for a closer look

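H2-DMb1, a beta chain of H2-DM, was at 6.83 CPM in Adipoq-F2-KO 2, while the other 3 Adipoq-F2-KO libraries lay between 9.26 and 9.71 CPM. Its gap to the nearest of them was 0.843 of the group's range, above Dixon's limit for 4 samples. In the same library Cd74, H2-Eb1 and H2-Ab1 were also lowest of their group. H2-Oa, the alpha chain of H2-O, was at 0.332 CPM in Adipoq-F2-KO 3 and at 0 in the other 3 (gap of 1 of the range), and it was also above the counting limit in FFA2 fl/fl 2. The 10 members were examined in the Adipoq-F2-KO group, and Dixon's limit at 95% flags a small share of groups by chance.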

How the results depend on the processing

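Under edgeR with all libraries 173 genes were called, under RLE factors 171, under limma voom 208 and under the replicate block 224. A filter of at least 1 count called 1403, and DESeq2 called 890. Leaving out 1 library gave 1 to 178 genes: 1 without FFA2 fl/fl 1, 41 without FFA2 fl/fl 2, 5 without FFA2 fl/fl 3, 11 without Adipoq-F2-KO 2 and 20 without Adipoq-F2-KO 3. With all libraries 136 genes were higher and 37 lower, while 0 were higher without FFA2 fl/fl 1 or FFA2 fl/fl 3, so the calls of Ctsh, Cd83, Cd44, Cd68 and Lyz2 were lost without either. Without both libraries with B cell transcripts, 2 genes were called.

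Members called higher were 0 by edgeR and 4 by DESeq2 (H2-Aa adjusted p = 0.00772, H2-Ab1 0.0450, H2-Eb1 0.0219, Cd74 0.0150) and 4 with the filter of at least 1 count, against 3.76% of its genes. They were 0 in each of the other alternatives, and 0 members were called lower in any. When 1 library at a time was omitted, log2 fold changes were above 0 throughout for H2-Aa (0.44 to 0.69), H2-Ab1 (0.31 to 0.52), H2-Eb1 (0.40 to 0.70), Cd74 (0.44 to 0.74), H2-DMa (0.33 to 0.76) and H2-DMb1 (0.26 to 0.44).

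H2-DMb2 changed sign under limma voom (0.26), the replicate block (0.57), without both libraries with B cell transcripts (0.92) and without FFA2 fl/fl 2, Adipoq-F2-KO 2 or Adipoq-F2-KO 4 (1.38, 0.053 and 0.0034; range -0.64 to 1.38). H2-Ob did so under limma voom (0.79), the replicate block (0.98), without both libraries (1.94) and without FFA2 fl/fl 2 or Adipoq-F2-KO 1 (2.39 and 0.073; range -0.70 to 2.39). Ciita did so without FFA2 fl/fl 3 (range -0.27 to 0.74). The cause was not tested.

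Same-numbered libraries did not deviate together (r = 0.031, -0.024 and -0.020), and 1 of 6 libraries correlated best with its own number. So few libraries cannot exclude that the numbers pair the samples. With 3 and 4 libraries, H2-DMb2, H2-Oa, H2-Ob and Ciita, at few counts, could not be measured closely.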
